A study of Mus musculus with 6 samples.

Results

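Aldehyde dehydrogenases (ALDHs) are enzymes that oxidise reactive aldehydes to carboxylic acids with NAD or NADP. This account follows 10 members of the family in RNA from LT-HSCs of the mouse, the long-term hematopoietic stem cells from which every blood lineage is renewed. The members were found by gene name among 55487 genes of the expression table, all 10 were present, and 9 of the 10 had enough counts to be tested. The study held 6 bulk RNA-seq libraries from unirradiated wild-type mice, 3 after saline and 3 after carnosine, a dipeptide that traps reactive aldehydes. Cells had been sorted as negative for lineage markers, Flk2 and CD34 and positive for Sca-1 and c-Kit. All groups share the wild-type genotype and the absence of irradiation. The sources used here do not give strain, age, sex, number of mice or the dose and duration of carnosine. Whether replicate libraries stem from different mice is not stated either, so p-values measure only the spread between libraries, which may be technical.

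Aldehydes arise in cells from lipid peroxidation, from the breakdown of amino acids and from demethylation reactions, and they can crosslink DNA and protein. In blood stem cells the mitochondrial enzyme Aldh2 and the Fanconi pathway of crosslink repair are known to guard against such damage. High ALDH activity is also a handle by which stem and progenitor cells are isolated, an activity long associated with Aldh1a1, which makes retinoic acid from retinal.

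Library totals ran from 10304539 to 13251332 counts, and saline libraries had 23899 to 25288 genes with counts against 22218 to 22820 in carnosine libraries. All 12 stem cell marker genes (Procr, Hlf, Mecom, Slamf1, Mllt3, Fgd5, Hoxb5, Ctnnal1, Tcf15, Meis1, Ly6a and Kit) were measured, and 1 was called higher in carnosine (Mecom, log2 fold change 0.19) and 0 lower. Of all 15298 genes tested, edgeR called 9.51% higher and 8.39% lower at an adjusted p under 0.05. The edgeR test at an unadjusted p under 0.05 gave 2 higher and 1 lower in the stem cell list. The Mecom call was lost whichever single library was left out. RNA for Cd34 (857 CPM in saline, 861 CPM in carnosine; CPM is counts scaled to library size only) and for Flt3, which encodes Flk2 (818 and 775 CPM), was read although the gate selects cells without these proteins on the surface. Together the 12 stem cell genes summed to 1300 to 1320 CPM in saline and 1250 to 1390 CPM in carnosine. Their single means in saline ran from 1.75 CPM (Hoxb5) to 546 CPM (Kit), with Tcf15 at 2.61, Slamf1 at 4.28 and Procr at 36.0 CPM. Some marker lists of other cells moved with treatment. The 11 multipotent progenitor genes summed to 3050 to 3070 CPM in saline and 2610 to 2660 CPM in carnosine (0 higher, 5 lower). Flt3 and Cd34 belong to that list too, and neither was called. The 10 erythroid genes summed to 62.0 to 71.0 CPM in saline and 165 to 169 CPM in carnosine (6 higher, 0 lower). Monocyte genes summed to 210 to 222 CPM and 180 to 195 CPM, basophil, mast cell and eosinophil genes to 37.8 to 44.2 CPM and 25.5 to 28.0 CPM, and B and plasma cell genes to 554 to 634 CPM and 693 to 952 CPM. No gene of any marker list was at 0 counts in all libraries. Their part in the differences of ALDH genes was not tested. In bulk samples, fewer cells of a type and less RNA per cell cannot be told apart.

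Promoter sequences were looked up because Aldh1a1 and Aldh1a7 are near copies, so that their reads, and their start regions, can be mistaken for each other. RefSeq (GRCm38.p6) gives windows for 8 of the 10 members and none for Aldh2 and Aldh7a1. Aldh1a1 has 2 annotated starts. The 120 bases before its downstream start, chr19:20601848-20601967 on the plus strand, matched the 120 bases before the start of Aldh1a7, chr19:20727557-20727676 on the minus strand, at 105 positions without gaps. Over the nearest 100 bases, 94 were identical. Bases that differ are in capitals.
Aldh1a1 downstream start: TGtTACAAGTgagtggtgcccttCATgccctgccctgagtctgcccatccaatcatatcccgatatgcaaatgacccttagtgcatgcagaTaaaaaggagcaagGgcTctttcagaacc
Aldh1a7: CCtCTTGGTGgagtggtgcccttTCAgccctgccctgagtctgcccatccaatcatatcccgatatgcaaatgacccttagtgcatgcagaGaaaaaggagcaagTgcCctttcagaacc

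The members called higher in carnosine, described below, are Aldh1a1 and Aldh9a1, and the 250 bases before the upstream start of Aldh1a1 (chr19:20492333-20492582, plus strand) and before that of Aldh9a1 (chr1:167349741-167349990, plus strand) follow. In the first the capitals mark a match to the AP-1 letters TGANTCA, and in the second a match to the core of the antioxidant response element, TGACNNNGC.
Aldh1a1 upstream start: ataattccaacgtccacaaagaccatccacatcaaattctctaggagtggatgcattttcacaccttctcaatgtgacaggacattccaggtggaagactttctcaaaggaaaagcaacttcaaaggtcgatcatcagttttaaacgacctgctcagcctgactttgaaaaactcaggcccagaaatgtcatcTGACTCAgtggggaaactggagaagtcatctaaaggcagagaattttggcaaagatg
Aldh9a1: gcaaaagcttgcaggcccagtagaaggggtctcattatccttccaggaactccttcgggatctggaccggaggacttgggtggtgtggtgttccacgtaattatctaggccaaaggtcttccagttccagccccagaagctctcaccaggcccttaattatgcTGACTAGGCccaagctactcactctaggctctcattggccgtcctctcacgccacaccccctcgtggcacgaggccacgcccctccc

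Both strands were searched in the 250 bases before each start. TGANTCA occurred in 6.75% and TGACNNNGC in 10.2% of 32851 windows of all genes. Among the members' windows only these 2 held the respective letters. The windows differed in base composition. Those of Aldh3a2 and Aldh16a1 held 18 CpG each, against a median of 6 over all windows, and the upstream and downstream windows of Aldh1a1 held 3 and 1. The GC box GGGCGG, present in 32.7% of all windows, occurred 4 times before Aldh16a1, 2 times before Aldh3b1 and 1 time each before Aldh1b1 and Aldh3a2. A match describes letters and shows no bound factor.

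The family was dominated by Aldh2. Levels of different genes are compared here as FPKM, counts scaled to gene length and to library size. Aldh2 (ENSMUSG00000029455, GRCm38 chromosome 5, 121566027 to 121593824), which clears acetaldehyde and lipid peroxidation products in mitochondria, was read at 91.0, 99.6 and 95.6 FPKM in the saline libraries. In the carnosine libraries it was read at 101, 97.4 and 97.5 FPKM. The groups overlapped. Aldh2 made up 59.7% to 62.0% of the members' summed FPKM in saline and 59.8% to 60.6% in carnosine, and its mean level exceeded that of 96.8% of the genes tested. Together the 10 members took 0.0974% to 0.104% of counts in saline libraries and 0.103% to 0.107% in carnosine libraries.

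**Figure D1:**
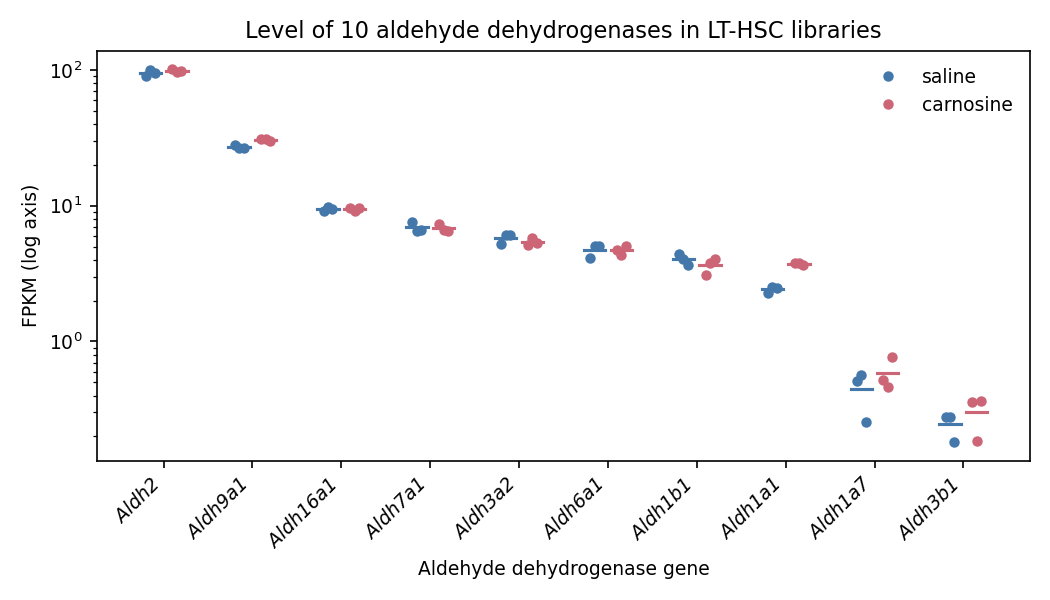
FPKM of the 10 members on a log axis, with 1 point per library (saline blue, carnosine red) and bars at the group means (n = 3). Aldh2 lies at 91.0 FPKM or above in all libraries, Aldh1a7 and Aldh3b1 lie below 0.8 FPKM, and of all members Aldh1a1 shows the widest gap between groups that do not overlap.

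Aldh9a1 followed with 26.9 ± 0.881 FPKM in saline and 30.7 ± 0.464 FPKM in carnosine (SD, n = 3). Next came Aldh16a1, Aldh7a1, Aldh3a2, Aldh6a1, Aldh1b1 and Aldh1a1, whose means over the 6 libraries ran from 9.45 down to 3.09 FPKM. Aldh1a7 (0.514 FPKM) and Aldh3b1 (0.274 FPKM) were lowest. Down to Aldh6a1 each gene lay above the next in all 6 libraries and no ranges overlapped. The ranges of Aldh6a1 and Aldh1b1, of Aldh1b1 and Aldh1a1, and of Aldh1a7 and Aldh3b1 did overlap. The length behind the FPKM of Aldh1a1 was 5904 bases, whereas its longest protein-coding transcript in GENCODE M21 has 2358, and per kilobase of such transcripts, a scale chosen after seeing the data, Aldh1a1 and Aldh1b1 changed places while the other 8 kept theirs. The gap between the means of Aldh1a1 and Aldh1a7 was 6.01-fold in FPKM and 15-fold on the transcript scale.

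The comparison of carnosine with saline asks whether an aldehyde trap given to the animal goes with other RNA levels of the cell's own aldehyde-clearing enzymes. Of the 9 members tested, 2 were higher in carnosine, Aldh1a1 and Aldh9a1, and 0 were lower. Over all 15298 genes tested with edgeR's quasi-likelihood test, 9.51% were called higher and 8.39% lower at an adjusted p (Benjamini-Hochberg) under 0.05. The counts for the members were the same at an unadjusted p under 0.05. The limma-voom test also called 2 higher and 0 lower, and DESeq2 called 1 and 0. Groups did not overlap for 2 members, both with carnosine higher, as for 19.7% of all genes (38.7% in either direction). The median log2 fold change was 0.02 over the 9 members and 0.0009 over all genes tested.

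Aldh1a1 (ENSMUSG00000053279, chromosome 19, 20492715 to 20643465) is the cytosolic enzyme that turns retinal into retinoic acid. It had 140, 154 and 194 counts in the saline libraries, or 13.5, 15 and 14.7 CPM on the TMM scale (trimmed mean of M-values). In the carnosine libraries it had 271, 232 and 287 counts, or 22.5, 22.3 and 21.8 CPM. Every carnosine library lay above every saline library, and the mean rose from 14.4 ± 0.797 CPM to 22.2 ± 0.377 CPM (SD, n = 3). The log2 fold change was 0.62 (SE 0.075, edgeR adjusted p = 0.00164), a 1.54-fold rise with a 95% interval of 1.37 to 1.74. The spread of its FPKM between libraries (coefficient of variation 5.44% in saline, 1.72% in carnosine) lay below the counting error (7.84% and 6.16%). The edgeR SE and interval may therefore be too narrow. DESeq2 gave 0.621 with a larger SE of 0.145. Of all genes tested, 92.7% changed by less in either direction. The call held whichever single library was left out (edgeR adjusted p = 0.00737 to 0.0105). Set against Aldh2 in the same library, the FPKM of Aldh1a1 was 2.51% to 2.60% of that of Aldh2 in saline and 3.76% to 3.86% in carnosine. Per kilobase of the longest coding transcript these shares were 3.59% to 3.72% and 5.39% to 5.53%, and the groups did not overlap on either scale.

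**Figure D2:**
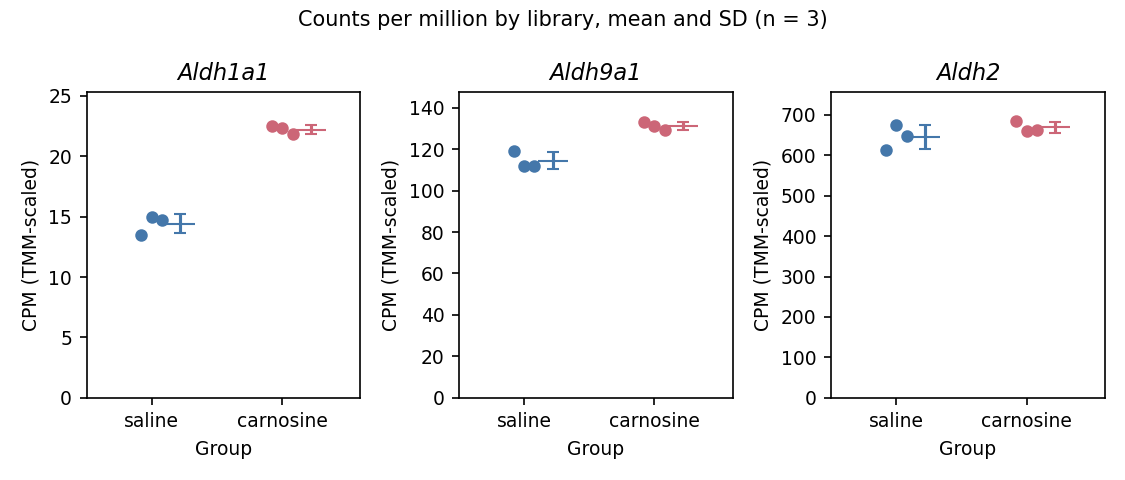
TMM-scaled CPM of Aldh1a1, Aldh9a1 and Aldh2 by group, with 1 point per library and the mean with SD beside the points (n = 3), each axis starting at 0. The carnosine libraries lie above all saline libraries for Aldh1a1 (21.8 to 22.5 against 13.5 to 15) and Aldh9a1 (129 to 133 against 112 to 119), and the groups overlap for Aldh2.

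Aldh1a7 (ENSMUSG00000024747, chromosome 19, 20692953 to 20727562), a rodent copy of Aldh1a1, lies 49487 bases from it on the opposite strand. It was sparse, with 11, 12 and 7 counts in saline and 13, 10 and 21 in carnosine. The groups overlapped, and the 95% interval of its fold change, 0.757 to 2.48, includes the rise seen for Aldh1a1 and no change. The aligned transcripts of both genes were 88.8% identical with an identical run of 100 bases, and how reads that fit both were counted is not given in the sources used here. Counted as 1 gene, the pair had a log2 fold change of 0.61 (edgeR adjusted p = 0.0015).

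The other retinal dehydrogenases were nearly silent. Aldh1a2 had 0 counts in every library, which allows up to 0.226 to 0.291 CPM according to depth (3 counts of the total, counting error only). Aldh1a3 had 9 counts over the saline libraries and 2 over the carnosine libraries.

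Aldh1b1 (ENSMUSG00000035561, chromosome 4, 45799022 to 45804604) is a mitochondrial relative of Aldh2 that also accepts acetaldehyde. It was read at 12.1, 11.1 and 10.0 CPM in saline and at 8.54, 10.4 and 11.1 CPM in carnosine. The groups overlapped, with a log2 fold change of -0.14 (95% interval -0.45 to 0.17, edgeR adjusted p = 0.497). For Aldh2, with 6387 to 8737 counts per library, the interval was narrow. Its fold change was 1.04 with a 95% interval of 0.979 to 1.1 (edgeR adjusted p = 0.354). A rise of the size of that of Aldh1a1 lies outside this interval.

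**Figure D3:**
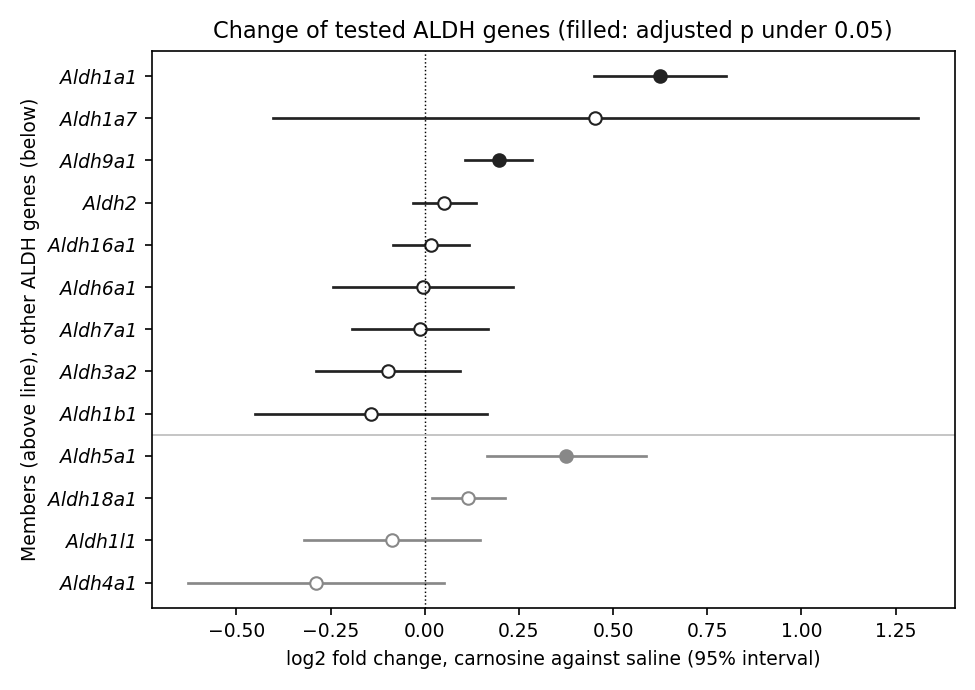
log2 fold change, carnosine against saline, with its 95% interval from the edgeR fit (3 libraries a group) for the 9 tested members above the line and 4 other ALDH genes below it; filled points passed an adjusted p under 0.05. Aldh1a1 (0.62), Aldh9a1 (0.20) and Aldh5a1 (0.38) are filled, and the interval of Aldh1a7 is the widest.

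Aldh9a1 (ENSMUSG00000026687, chromosome 1, 167349991 to 167368532) makes the carnitine precursor gamma-butyrobetaine and oxidises aminoaldehydes. It was read at 119, 112 and 112 CPM in saline and 133, 131 and 129 CPM in carnosine. The groups did not overlap. The log2 fold change was 0.20 (SE 0.038, edgeR adjusted p = 0.0124), a 1.15-fold rise with a 95% interval of 1.08 to 1.22. DESeq2 gave the same direction without a call (DESeq2 adjusted p = 0.0766). The call held in each edgeR fit without 1 library, with an adjusted p of up to 0.0492. In the edgeR fit the intervals of the fold changes of Aldh9a1 and Aldh1a1 did not overlap. DESeq2 gave larger SEs (0.0741 for Aldh9a1, 0.145 for Aldh1a1), and its intervals were not compared. A difference in size between these rises is therefore stated for the edgeR intervals only, and that of Aldh1a1 may be too narrow. The FPKM of Aldh9a1 was 10.4 to 12.2 times that of Aldh1a1 in saline libraries and 8.18 to 8.22 times in carnosine libraries. Per kilobase of the longest coding transcript it was 6.24 to 7.32 times and 4.90 to 4.92 times.

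Of the pair of ALDH3 members, which handle fatty and other lipid-derived aldehydes, Aldh3a2 did not pass the test and Aldh3b1 was too sparse to be tested. Aldh3a2 (ENSMUSG00000010025, chromosome 11, 61223417 to 61267464), the fatty aldehyde dehydrogenase of the endoplasmic reticulum, was read at 36.3, 42.4 and 42.2 CPM in saline and 35.8, 40.3 and 37.0 CPM in carnosine. Its log2 fold change was -0.10 (95% interval -0.29 to 0.09, edgeR adjusted p = 0.45), and the groups overlapped. Aldh3b1 (ENSMUSG00000024885, chromosome 19, 3913491 to 3929808), a membrane-associated enzyme for lipid aldehydes, was under the count filter. It had 6, 6 and 5 counts in saline and 9, 4 and 10 in carnosine, a ratio of 1.28 per total with an exact 95% interval of 0.655 to 2.55 that covers counting error only.

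Members of amino acid breakdown lay near 0 change. Aldh6a1 (ENSMUSG00000021238, chromosome 12, 84430717 to 84451004), the methylmalonate semialdehyde dehydrogenase of valine breakdown, was read at 26.1, 32.0 and 32.1 CPM in saline and 29.9, 27.6 and 32.3 CPM in carnosine. Aldh7a1 (ENSMUSG00000053644, chromosome 18, 56509687 to 56572951), which acts in lysine breakdown, was read at 58.2, 50.2 and 51.0 CPM in saline and 56.6, 50.8 and 50.5 CPM in carnosine. In both genes the groups overlapped, and the fold changes were 0.996 (95% interval 0.845 to 1.18) and 0.991 (95% interval 0.874 to 1.12).

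Aldh16a1 (ENSMUSG00000007833, chromosome 7, 45140684 to 45154584) is a family member thought to have lost catalysis in mammals. It ran from 92.6 to 99.0 CPM in saline and from 93.9 to 99.2 CPM in carnosine, with a fold change of 1.01 (95% interval 0.943 to 1.09). Its spread between libraries (coefficient of variation 3.22% in saline, 2.86% in carnosine) was near the counting error (3.04% and 2.94%). The spread of Aldh1a1, 5.44% and 1.72%, lay below its counting error of 7.84% and 6.16%, and that of Aldh2, 4.55% and 1.94%, above its 1.17% and 1.12%.

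In GENCODE M21, gene models on the other strand share exon bases with 4 members. Bbof1 shares 1078 bases with Aldh6a1, Phax 300 and the pseudogene AC162035.3 176 with Aldh7a1, Pih1d1 149 with Aldh16a1 and Gm42879 130 with Aldh2. The kit keeps strand, per the labels, but whether the counting used it was not stated, so reads over these bases cannot be assigned to a strand. Neither Aldh1a1 nor Aldh9a1 shares exon bases with another gene model of GENCODE M21. The lengths behind their FPKM, 5904 and 4251 bases, differ from their merged M21 exons, 4937 and 3383 bases. Overlaps in the gene models used for counting are therefore not known.

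Of 11 other ALDH genes, 4 could be tested, 1 was called higher and 0 lower (2 and 0 at an unadjusted p under 0.05, edgeR). Aldh5a1, which oxidises succinic semialdehyde from GABA, rose from a mean of 9 CPM (SD 0.333) to one of 11.7 CPM (SD 0.33, n = 3 each), with a log2 fold change of 0.38 (edgeR adjusted p = 0.0283). That call was lost whichever single library was left out (edgeR adjusted p = 0.058 to 0.0879) and by DESeq2 (adjusted p = 0.215). Aldh18a1, which makes the proline precursor, was at 79.1 and 85.7 CPM in saline and carnosine, Aldh1l1 of folate metabolism at 29.3 and 27.6 CPM, and Aldh4a1 of proline breakdown at 22 and 18.0 CPM; none of these 3 passed (edgeR adjusted p = 0.0975, 0.591 and 0.215). Beside Aldh1a2, Aldh8a1 and Aldh3b2 had 0 counts in every library. Aldh3a1 had 5, Aldh1l2 4 and Aldh3b3 1 over all 6.

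Lists of genes that feed or use the members' reactions were counted in the same fit. Over all genes tested, 9.51% were called higher and 8.39% lower. Retinoid genes, the pathway around Aldh1a1, went both ways, with 4 of 14 tested called higher and 1 lower (median log2 fold change -0.11). At an unadjusted p under 0.05 (edgeR) the counts were 4 higher and 5 lower. The lipid and retinoic acid carrier Fabp5 (0.41), the heterodimer partner Rxra (0.28), the reductase Dhrs4 (0.30) and the retinoic acid hydroxylase Cyp26b1 (0.81) rose, and the receptor Rara fell by 0.36 on the log2 scale. Only Fabp5 stayed called in all 6 edgeR fits that left out 1 library, and DESeq2 called Fabp5 and Rara of these 5. Cyp26b1 was low, at 1.91 ± 0.517 CPM in saline and 3.31 ± 0.300 CPM in carnosine (SD, n = 3). The list of carnitine synthesis and uptake, around Aldh9a1, also holds acyltransferases that use carnitine, such as Cpt1a. Of its 10 tested genes, 4 were called higher and 0 lower (median 0.17, with 5 and 0 at an unadjusted p under 0.05). The carnitine acyltransferase Cpt1a had a mean of 208 CPM (SD 7.04) in saline and rose to 289 CPM (SD 6.83, n = 3 each) in carnosine, with an edgeR adjusted p of 0.000162. The serine hydroxymethyltransferases Shmt2 (0.26) and Shmt1 (0.24) and the first carnitine synthesis enzyme Tmlhe (0.30) rose too. Tmlhe was at an edgeR adjusted p of 0.0494 and was called in 0 of the 6 fits that left out 1 library, and Shmt1 in 2. The last enzyme of that synthesis, Bbox1, had 0 counts. The carnitine uptake genes Slc22a5 (-0.03) and Slc22a4 (0.22) were not called (edgeR adjusted p = 0.774 and 0.768).

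**Figure D4:**
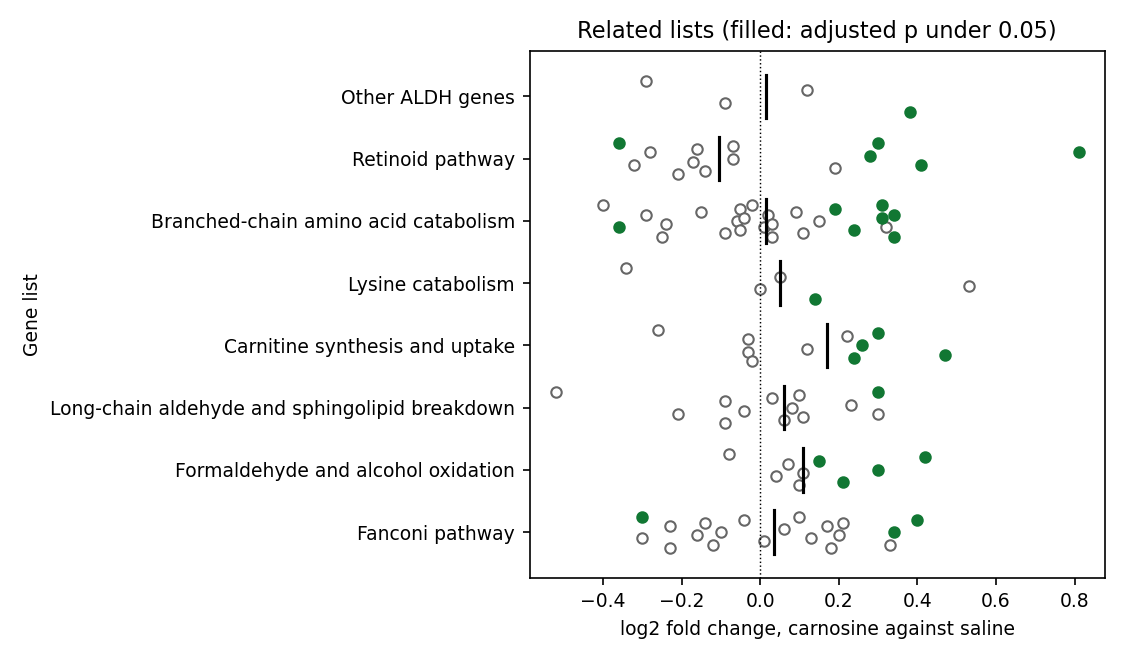
log2 fold change, carnosine against saline, of each tested gene in the 8 lists (1 point per gene, edgeR, 3 libraries a group), with filled points at an adjusted p under 0.05 and vertical bars at list medians. Filled points of the carnitine and the formaldehyde lists all lie above 0 (4 each), and the retinoid, branched-chain and Fanconi lists have filled points on both sides.

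The list of formaldehyde and alcohol oxidation also holds folate enzymes and an aldehyde reductase. Of its 9 tested genes, 4 were called higher and 0 lower (median 0.11, with 6 and 0 at an unadjusted p under 0.05). They were the folate enzymes Mthfd1l (0.42), Mthfd1 (0.21) and Mthfd2 (0.30) and the aldehyde reductase Akr1a1 (0.15). The first 2 stayed called in all 6 fits that left out 1 library, and both were called by DESeq2, which did not call the other 2. The formaldehyde dehydrogenase Adh5 did not pass (112 and 120 CPM, edgeR adjusted p = 0.0832). Of 20 Fanconi genes, 2 were called higher and 1 lower (median 0.04; 4 and 4 at an unadjusted p under 0.05), shares near the 9.51% and 8.39% of all genes. Brca2 (0.40) and Fancd2 (0.34) rose and Fancg fell by 0.30 on the log2 scale, and only Brca2 stayed called in all 6 fits that left out 1 library.

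Branched-chain amino acid genes, the setting of Aldh6a1, gave 6 higher and 1 lower of 26 (median 0.01; 7 and 4 at an unadjusted p under 0.05). Acat1 (0.31), Pcca (0.34), the kinase Bckdk (0.34) and Acadsb (0.31) rose, and the phosphatase Ppm1k fell by 0.36 on the log2 scale. Acat1 and Pcca stayed called in all 6 fits that left out 1 library. In the lysine list around Aldh7a1, 1 of 5 was called higher, the 2-oxoglutarate dehydrogenase Ogdh (0.14), and 0 lower; Aadat and Crym had 0 counts. Of 13 genes of long-chain aldehyde and sphingolipid breakdown, around Aldh3a2, 1 was called higher, the phosphatase Sgpp1 (0.30), and 0 lower (1 and 1 at an unadjusted p under 0.05). DESeq2 called neither Ogdh nor Sgpp1 (adjusted p = 0.168 and 0.0616).

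The genes most like Aldh1a1 across the 6 libraries were ranked by the mean absolute difference of log2 CPM after centring each gene, over 9692 genes whose average log2 CPM reached 3. The nearest were the adaptor Sla (0.020), the co-chaperone Fkbp5 (0.043), the kinase Stk17b (0.044), the water channel Aqp1 (0.045) and the kinase Plk2 (0.045), against a median distance of 0.315. Their log2 fold changes, 0.60, 0.63, 0.61, 0.70 and 0.55, are by construction close to that of Aldh1a1.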

How the data were processed

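Whole-number counts and FPKM of each gene in each library are the authors' values, per the file headers. The tools listed in the submitters' processing notes are HISAT2, StringTie, edgeR and CASAVA 1.8, with build GRCm38. The annotation release, strand setting and handling of reads with several places were not stated. Deposited counts and FPKM imply gene lengths that were whole, within 0.05, for 95.4% to 96.4% of values over 20 counts. Locations come from GENCODE M21.

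Counts were filtered with filterByExpr (15298 genes kept), scaled by TMM (factors 0.9977 to 1.003) and tested two-sided with edgeR 4.0.16 (quasi-likelihood, R 4.3.3). P-values were adjusted over all genes kept by the Benjamini-Hochberg method. The script was tested on simulated data. Alternatives were DESeq2 1.42.0, limma-voom and limma-trend on log2(FPKM + 1) and log2(FPKM + 0.1) (limma 3.58.1), other scalings, filters and thresholds, a replicate block and leaving out each library. Members and lists were chosen with earlier results of these data known. The text names all members and other ALDH genes, each list's called genes (at most the 5 with the smallest p), the stem cell genes (but for 1 further gene, left out of that list and not reported here), the gate genes and the 5 genes nearest to Aldh1a1.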

Additional observations from a re-analysis of the deposited data

How the results depend on the processing

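Aldh1a1 kept its direction and call under every alternative run, with log2 fold changes of 0.466 (limma-trend on log2(FPKM + 1)) to 0.653 (without saline replicate 2). Aldh9a1 kept its direction under each, and lost its call with DESeq2 (0.193, adjusted p = 0.0766) and at a threshold of 0.01 (0.196, edgeR adjusted p = 0.0124), so that 1 member was called higher in both. Small changes turned sign. Without the filter, Aldh6a1 was 0.00884 and Aldh7a1 0.00114. With 1 library left out, Aldh6a1 ran from -0.0948 to 0.0509, Aldh7a1 from -0.0702 to 0.0579 and Aldh16a1 from -0.00566 to 0.0414. Over all genes, 772 were higher and 764 lower with DESeq2, and 603 and 504 at a threshold of 0.01. Leaving out 1 library gave 932 (without carnosine replicate 1) to 1009 higher and 801 (without saline replicate 2) to 883 lower, fewer samples entering each fit. Same-numbered libraries did not deviate together across genes (r = -0.0495, -0.0686 and 0.0188). With 3 libraries a group, these values cannot show whether the numbers pair samples. With the replicate block 946 genes were higher and 810 lower, and Aldh1a1 (0.625, edgeR adjusted p = 0.0145) and Aldh9a1 (0.196, edgeR adjusted p = 0.036) were still called. Depth limits Aldh1a7 and Aldh3b1, with at most 21 and 10 counts in a library.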
